A study of Mus musculus with 3 samples.

Results

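Colony-stimulating factors are secreted proteins that keep myeloid cells alive, make them divide and activate them. The genes for these factors and their receptors were followed in mouse dorsal skin: the ligands Csf1, Il34, Csf2 and Csf3, and the receptor chains Csf1r, Csf2ra, Csf2rb and Csf3r. They were chosen by symbol and not by any measured value, and each symbol matched 1 row, so all 8 were found among the 31053 genes listed for each library. The skin came from C57BL/6 mice of 7 weeks and was profiled by 3' single-cell RNA sequencing, which counts unique molecular identifiers (UMIs, each standing for 1 captured RNA molecule) per gene and cell. There were 3 libraries, 1 per group. The IMQ+celastrol library was from skin given celastrol, a plant triterpenoid, together with imiquimod, a Toll-like receptor agonist that brings on a psoriasis-like dermatitis. The IMQ library was from skin given imiquimod, and the normal library was from control skin given glycerin. The labels give imiquimod-induced psoriasis as the condition of both the IMQ+celastrol and the IMQ library. Sex, doses, days of treatment and the number of mice behind each library are not given in the sources used here.

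CSF1 and IL34 are both ligands of the receptor tyrosine kinase CSF1R, on which monocytes, tissue macrophages and Langerhans cells depend, and in mouse epidermis IL34 from keratinocytes is known to maintain Langerhans cells. CSF2 (GM-CSF) binds a ligand-specific alpha chain, CSF2RA, that pairs with the beta chain CSF2RB, which the interleukin 3 and interleukin 5 receptors also use, and it acts on dendritic cells, macrophages and granulocytes. CSF3 (G-CSF) signals through CSF3R and drives the production and release of neutrophils.

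RefSeq's table of 300 bases around the transcription start (build GRCm38.p6) held 4 of the 8 members. These sequences belong to members whose levels are described below in a stromal, a T-cell and 2 myeloid settings. Positions in them count from RefSeq's start, which is not always the gene start of the GENCODE M21 annotation used further below. The Csf2 window lies wholly upstream of the Csf2 gene in that annotation (chr11:54247271-54249667). They are Csf1 (chr3:107760420-107760719, minus strand), Csf2 (chr11:54249850-54250149, minus strand), Csf2ra (chr19:61228369-61228668, minus strand) and Csf3r (chr4:126024409-126024708, plus strand). Each is written 5′ to 3′ on the gene's strand. Capitals mark matches, on either strand, to the PU.1 core GAGGAA, the AP-1 motif TGANTCA, the C/EBP motif TTGCNNAA or the NF-kB consensus.
Csf1: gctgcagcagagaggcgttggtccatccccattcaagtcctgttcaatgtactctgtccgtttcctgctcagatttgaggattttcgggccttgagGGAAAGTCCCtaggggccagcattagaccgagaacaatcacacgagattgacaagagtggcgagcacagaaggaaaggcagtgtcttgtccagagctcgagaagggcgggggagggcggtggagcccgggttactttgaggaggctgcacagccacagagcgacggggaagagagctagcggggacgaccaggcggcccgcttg
Csf2: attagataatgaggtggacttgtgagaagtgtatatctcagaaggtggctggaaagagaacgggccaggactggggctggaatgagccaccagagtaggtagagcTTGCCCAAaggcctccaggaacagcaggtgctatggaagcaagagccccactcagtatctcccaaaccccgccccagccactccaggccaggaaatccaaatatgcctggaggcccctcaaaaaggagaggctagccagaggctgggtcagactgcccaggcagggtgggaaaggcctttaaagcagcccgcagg
Csf2ra: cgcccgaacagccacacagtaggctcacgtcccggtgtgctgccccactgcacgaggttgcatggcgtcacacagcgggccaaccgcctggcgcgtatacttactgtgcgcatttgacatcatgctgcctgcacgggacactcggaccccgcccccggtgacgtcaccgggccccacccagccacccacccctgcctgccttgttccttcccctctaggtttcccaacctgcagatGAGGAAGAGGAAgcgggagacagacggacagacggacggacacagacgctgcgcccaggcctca
Csf3r: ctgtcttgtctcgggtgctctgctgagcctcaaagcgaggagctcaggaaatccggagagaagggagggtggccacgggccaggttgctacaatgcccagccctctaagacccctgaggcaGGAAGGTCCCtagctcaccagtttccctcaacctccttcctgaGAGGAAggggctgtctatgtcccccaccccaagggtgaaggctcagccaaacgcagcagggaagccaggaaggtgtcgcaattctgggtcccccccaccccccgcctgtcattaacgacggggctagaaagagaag
The Csf1 window held an NF-kB consensus that began 154 bases before the start (position -154). The Csf2 window held TTGCNNAA at position -145. The Csf2ra window held GAGGAA next to each other at positions -14 and -8, and the Csf3r window held GAGGAA at position -86 and an NF-kB consensus at position -129. No match overlapped another. Among 32851 windows of the same length, 28.3% held GAGGAA, 7.81% held TGANTCA, 10.8% held TTGCNNAA and 8.46% held the NF-kB consensus. A match describes letters in a window and does not show binding, and TGANTCA was in none of the 4 windows.

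The libraries held 6777 barcodes (IMQ+celastrol), 8236 (IMQ) and 10565 (normal), with 103267738, 119831835 and 77880943 UMIs in that order. After filters on genes, mitochondrial UMIs and doublets, 6092, 7495 and 9558 cells were kept, with medians of 10622, 8866 and 5743.5 UMIs per cell. In the annotation, Il34 overlaps Gm15894 and Gm15895, Csf2 overlaps Gm12223 and Csf1r overlaps Hmgxb3, each on the opposite strand. Whether the counting used strand is not given in the sources used here, so these values are uncertain to that extent. From 15 to 26 barcode sequences were shared by any 2 libraries. Clustering without the 8 members gave 42 clusters. Marker genes named all but 5 of them, and the names are written "X-like". Fibroblast-like, dermal papilla-like and pericyte- or smooth muscle-like cells make up the stromal compartment, which held 53.7% of kept cells in the IMQ+celastrol library, 55.2% in the IMQ and 37.6% in the normal library. Myeloid-like cells made up 3.41%, 10.85% and 5.40% in the same order. Levels are UMIs of a gene per 1000000 UMIs (CPM) of the cells named. All intervals are 95% and exact (Poisson for a level, conditional binomial for a ratio, Clopper-Pearson for a share), and they cover counting error only, not variation between cells or mice. With 1 library per group no test between groups was possible, and treatment and library cannot be told apart. A ratio was called higher or lower at 1.5-fold or more with at least 20 UMIs over the 2 libraries, and classes were compared where both libraries had at least 50 cells.

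The ligands were counted mostly outside the myeloid-like cells and the receptors mostly within them, except for Csf2ra in the IMQ+celastrol library. Of the Csf1 UMIs of a library, 91.4% [90.5 to 92.1] were in the stromal compartment in the IMQ+celastrol library, 92.0% [91.3 to 92.7] in the IMQ library and 84.5% [82.5 to 86.3] in the normal library. For Il34 the shares by compartment differed between the libraries, and so did the make-up of the cells. Epithelial cells were 31.8% of kept cells in the IMQ+celastrol library, 17.9% in the IMQ and 45.5% in the normal library. The part of these cell numbers in the Il34 shares was not tested. The epithelial compartment held 32.2% [29.7 to 34.8] of Il34 UMIs in the IMQ+celastrol library, 24.8% [22.4 to 27.25] in the IMQ library and 66.5% [63.7 to 69.2] in the normal library, and the stromal compartment held 66.8%, 72.9% and 30.1%. Csf2 was a lymphoid message throughout, with 93.7% [89.45 to 96.6], 85.04% [82.6 to 87.25] and 94.8% [91.8 to 96.9] of UMIs in T or NK cell-like cells in the IMQ+celastrol, IMQ and normal libraries. The source of Csf3 also differed. Epithelial cells held 67.6% [63.2 to 71.8] of its UMIs in the IMQ+celastrol library, 58.9% [56.7 to 61.1] in the IMQ library and 19.1% [10.6 to 30.5] in the normal library, where endothelial cells held 79.4% [67.9 to 88.3].

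Among the receptors, the myeloid compartment held 62.1% [57.8 to 66.3], 92.3% [91.1 to 93.4] and 74.0% [70.8 to 77.1] of Csf1r UMIs in the IMQ+celastrol, IMQ and normal libraries. For Csf2ra these shares were 46.1% [41.8 to 50.5], 82.8% [80.8 to 84.6] and 59.2% [56.1 to 62.15]. The rest of Csf1r and Csf2ra lay mainly in stromal and, for Csf2ra, epithelial cells. Csf2rb had 82.9%, 82.2% and 75.0% of its UMIs in myeloid-like cells, and Csf3r, the G-CSF receptor of neutrophils, had 95.4%, 96.6% and 95.2%.

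**Figure D1:**
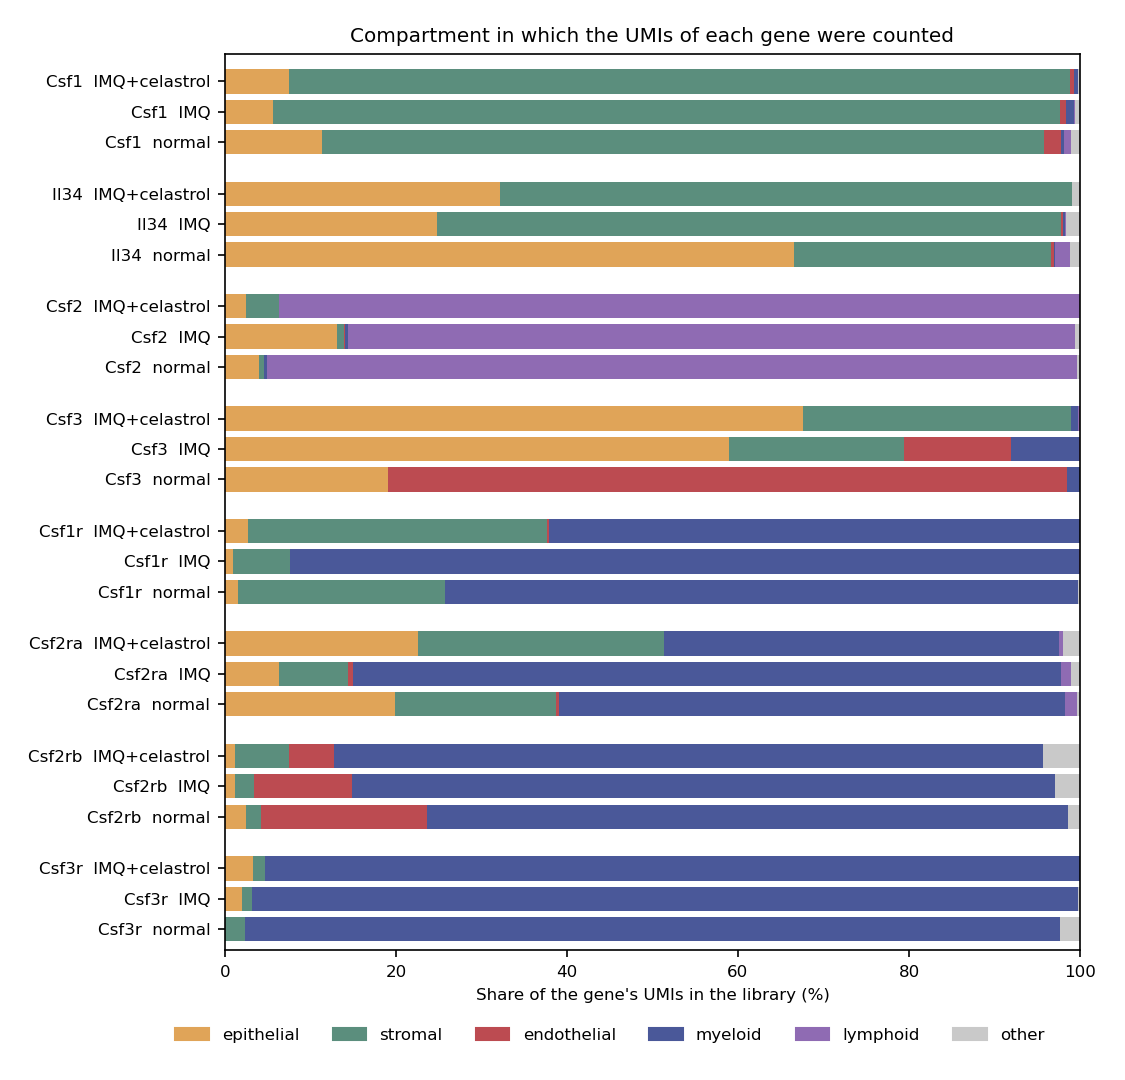
Bars show, for each gene and library, the percentage of the gene's UMIs counted in each compartment (x axis, 0 to 100%), with the IMQ+celastrol bar above the IMQ bar and the normal bar below. Receptor bars are mainly myeloid apart from Csf2ra in the IMQ+celastrol library (46.1%), Csf1 bars mainly stromal and Csf2 bars mainly lymphoid, and the epithelial share of Il34 is 66.5% in the normal library against 32.2% and 24.8% in the others.

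Over all kept cells, where composition and level per cell move together, Csf3 and Csf3r differed most between the IMQ and the normal library. Csf3 stood at 4.92 CPM in the IMQ+celastrol library, 17.7 CPM in the IMQ library and 1.004 CPM in the normal library (472, 1908 and 68 UMIs). Csf3r stood at 2.25, 7.11 and 0.620 CPM. Relative to the normal library, the IMQ library was 17.6-fold [13.8 to 22.8] higher for Csf3 and 11.5-fold [8.40 to 16.0] higher for Csf3r. It was also higher for Csf1 (2.72-fold [2.57 to 2.88]), Csf2rb (1.91-fold), Csf1r (1.86-fold) and Csf2 (1.84-fold), so 6 of 8 members passed the fold upward. Of all genes, 16.7% did so. Il34 (0.684) and Csf2ra (0.921) had ratios within the fold, none of the 8 was lower, and 25.2% of all genes were. With Scrublet's own doublet calls in the normal library, and the main rule kept in the IMQ library where Scrublet called only 1 cell, the log2 ratio of Csf2 was 0.58 and no longer past the fold.

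Relative to the IMQ library, the IMQ+celastrol library was lower for 6 of 8 members, where 13.1% of all genes were lower, and higher for none, where 8.30% were higher. The folds were 6.18 [5.41 to 7.08] for Csf2rb, 4.10 [3.52 to 4.79] for Csf2, 3.91 [3.55 to 4.31] for Csf1r, 3.60 [3.25 to 3.99] for Csf3, 3.16 [2.71 to 3.69] for Csf3r and 2.65 [2.40 to 2.94] for Csf2ra. Csf1 and Il34 stayed within the fold, at ratios of 0.859 and 1.17. Against the normal library, the IMQ+celastrol library was higher for Csf1, Csf3 and Csf3r (12.6% of all genes were higher) and lower for Csf1r, Csf2, Csf2ra and Csf2rb (23.8% were lower). These 3 comparisons share libraries and are given side by side. The share of myeloid-like cells given above was highest in the IMQ and lowest in the IMQ+celastrol library, an order that Csf1r and Csf2rb followed and Csf2ra and Csf3r did not. Its part in these ratios was not tested.

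Csf1 (ENSMUSG00000014599, chr3:107741048-107760469, minus strand; all gene positions are GENCODE M21 on GRCm38) encodes M-CSF, the broadly made ligand of CSF1R. In fibroblast-like cells it stood at 183 CPM [177 to 188.5] in the IMQ+celastrol library, 165 [161 to 169.8] in the IMQ library and 82.1 [77.5 to 87.0] in the normal library. The IMQ+celastrol library was 2.23-fold [2.09 to 2.38] and the IMQ library 2.01-fold [1.89 to 2.15] higher than the normal library, while the IMQ+celastrol to IMQ ratio was 1.11 [1.06 to 1.15] and within the fold. The IMQ over normal log2 ratio was 1.01, and at the lower clustering resolution of 0.5 it was 0.57, inside the fold. A Csf1 UMI was found in 1278 of 2608 fibroblast-like cells of the IMQ+celastrol library, 1813 of 3496 of the IMQ library and 772 of 2893 of the normal library. To even out depth, here and below, cells with at least 2000 UMIs were thinned to 2000 UMIs and shallower cells were left out. Of the cells so kept, the shares were 22.0% [20.3 to 23.7], 21.6% [20.2 to 23.05] and 14.8% [13.4 to 16.3]. Keratinocyte-like cells at the same depth gave 1.24%, 1.47% and 0.472%. Before thinning, median UMIs per cell were 8357.5, 8576.5 and 4205 for fibroblast-like cells and 27754, 41900 and 8230 for keratinocyte-like cells.

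The fibroblast-like class was not made of the same clusters in each library, and the level of Csf1 ranged widely between them. In comparisons of single clusters, the share of all genes past the fold in 1 direction ran from 5.67% to 31.6%. Cluster 15 (led by Smpd3, with Dpp4) had high levels in all libraries, at 287 CPM in the IMQ+celastrol library, 277 in the IMQ and 322 in the normal library. Cluster 4 (led by Col11a1) had 26.1 CPM in the IMQ+celastrol library and 27.15 in the normal library. Clusters 2, 3, 5, 14 and 15 had at least 50 cells in both the IMQ and the normal library. The IMQ over normal ratio was 1.28 in cluster 2, 1.05 in cluster 3 and 0.861 in cluster 15, all within the fold. It was 2.64 [1.56 to 4.87] in cluster 14 (led by Vit, with 123, 131 and 49.7 CPM in the IMQ+celastrol, IMQ and normal libraries). Cluster 5 had 17.7 and 29.2 CPM in the IMQ+celastrol and IMQ libraries and 0 UMIs in 72 normal cells, so the IMQ library was at least 2.18-fold higher than the 13.4 CPM that 3 counts would give there.

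The clusters that made up the class shifted at the same time. In the IMQ library the 3 most numerous fibroblast-like clusters were 1 (1105 cells, led by Hmga2), 2 (572 cells) and 9 (517 cells), while in the normal library they were 0 (1126 cells, with Cpz and Ccl19), 4 (731 cells) and 3 (590 cells). Cluster 0 held 343 cells in the IMQ+celastrol library, where Csf1 stood at 262.5 CPM against 154 CPM in the normal library, a ratio of 1.70 [1.54 to 1.88]. Cluster 9 (with Saa3 and Cxcl12) had 352 CPM in the IMQ+celastrol library and 234 CPM in the IMQ library, a ratio of 1.51 [1.40 to 1.62]. Cluster 1 had 102 and 99.0 CPM in those libraries.

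Csf1 was also counted outside fibroblast-like cells. Mast cell-like cells had 86.6 CPM in the IMQ+celastrol library, 344 in the IMQ and 443 in the normal library, but there were only 7, 29 and 13 of them. Neutrophil-like cells had 91.0 CPM in the IMQ+celastrol library and 65.0 CPM in the IMQ library. Pericyte- or smooth muscle-like cells stood at 25.4, 32.9 and 26.3 CPM, and blood endothelial-like cells at 41.2, 39.35 and 31.2 CPM, in the IMQ+celastrol, IMQ and normal libraries. None of these passed the fold in a class large enough to compare. Keratinocyte-like cells had 5.68, 6.23 and 4.25 CPM, and their IMQ over normal ratio of 1.47 fell just short of it. Other groupings did pass it. Over the myeloid compartment the log2 ratio was 2.33 (IMQ over normal) and 0.85 (IMQ+celastrol over IMQ). The second was inside the fold in 4 alternatives. Over the epithelial compartment it was 0.81 (IMQ over normal), with IMQ+celastrol over IMQ within the fold. Csf1 in cluster 24 (keratinocyte-like) was higher in IMQ over normal. It was lower in IMQ+celastrol over IMQ there and in cluster 32 (pericyte- or smooth muscle-like).

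**Figure D2:**
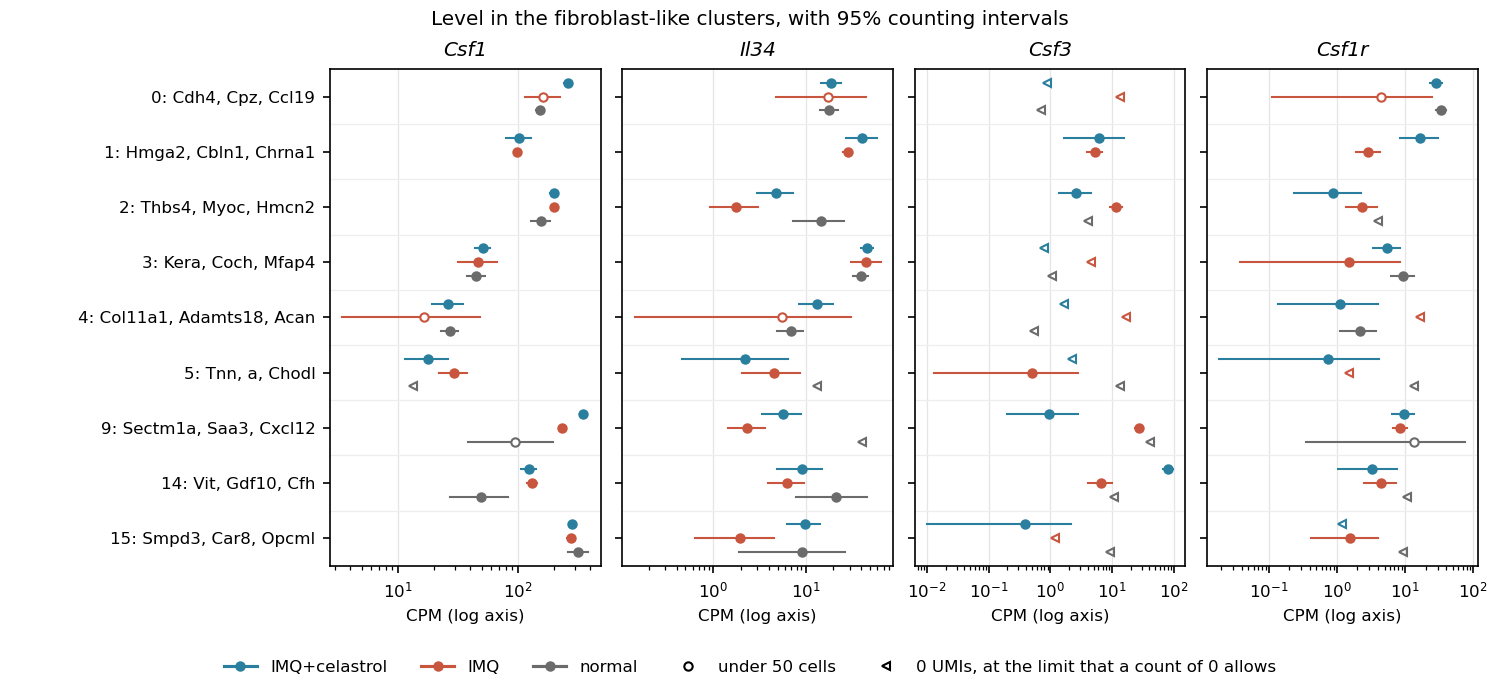
Points show the level (CPM, log axis) of 4 members in each fibroblast-like cluster, named by number and leading genes, with 95% counting intervals, for the IMQ+celastrol, IMQ and normal libraries from top to bottom within a row. Open circles are groups under 50 cells, open triangles mark 0 UMIs at the limit that a count of 0 allows, and groups under 5 cells are not drawn. Csf1 is under 30 CPM in cluster 4 of the IMQ+celastrol and normal libraries and over 250 CPM in cluster 15 of every library. Csf1r stands at 28.5 and 34.1 CPM in cluster 0 of the IMQ+celastrol and normal libraries.

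Il34 (ENSMUSG00000031750, chr8:110741829-110805924, minus strand) encodes the alternative ligand of CSF1R, made in mouse skin chiefly by keratinocytes. In keratinocyte-like cells it stood at 5.01 CPM [4.38 to 5.70] in the IMQ+celastrol library, 4.385 [3.78 to 5.065] in the IMQ library and 22.6 [20.7 to 24.55] in the normal library. This was 5.14-fold [4.345 to 6.11] lower in the IMQ than in the normal library, and the IMQ+celastrol library stood at 1.14 [0.937 to 1.39] times the IMQ library, within the fold. The ratio to the normal library depended on the scale. Counted per cell and not per UMI of the class, the IMQ over normal log2 ratio was -0.10, since 230, 185 and 536 Il34 UMIs came from 1469, 970 and 2617 keratinocyte-like cells of very different depth. Thinned to 2000 UMIs, 0.894%, 1.05% and 4.09% [3.36 to 4.94] of keratinocyte-like cells had an Il34 UMI. None of the 76, 449 and 60 thinned monocyte- or macrophage-like cells did.

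Among the epidermal clusters the level ranged widely. In the normal library, cluster 17 (led by Krt77, a differentiated keratinocyte keratin) had 64.4 CPM, cluster 11 had 14.8 CPM and cluster 7 had 2.26 CPM. Cluster 25 (with Cst6, unnamed, epithelial) had 73.0 CPM in the IMQ+celastrol library and 73.5 CPM in the normal library. Cluster 24, present in all libraries, had 7.36 CPM in the IMQ+celastrol library, 4.06 in the IMQ and 16.3 in the normal library, 4.02-fold [1.69 to 11.0] lower in the IMQ than in the normal library. Cluster 12 had 2.70 CPM in the IMQ+celastrol library and 1.13 CPM in the IMQ library, a ratio of 2.385 [1.40 to 4.15]. The keratinocyte-like cells lay mainly in clusters 16 and 12 in the IMQ+celastrol library (547 and 358 cells), in clusters 8 and 12 in the IMQ library (500 and 376 cells) and in clusters 7, 11 and 17 in the normal library (830, 754 and 600 cells).

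Stromal cells were the other source of Il34. Pericyte- or smooth muscle-like cells held 71.6 CPM [65.4 to 78.1] in the IMQ+celastrol library, 76.4 [70.2 to 83.0] in the IMQ library and 74.1 [56.8 to 94.98] in the normal library, all within the fold. There were 571, 609 and 197 such cells, and they gave 37.7%, 44.2% and 5.295% of a library's Il34 UMIs. Fibroblast-like cells had 16.4, 10.9 and 17.4 CPM in the IMQ+celastrol, IMQ and normal libraries. Here the IMQ library was 1.60-fold [1.35 to 1.88] lower than the normal library, and the IMQ+celastrol library was 1.51-fold [1.30 to 1.75] higher than the IMQ library. Neither call was firm: per cell the IMQ over normal log2 ratio turned to 0.29, and with size factors the IMQ+celastrol over IMQ log2 ratio was 0.44 and inside the fold.

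Schwann-like cells, the glia of peripheral nerves, had 34.0 CPM in the IMQ+celastrol library, 80.8 in the IMQ and 57.3 in the normal library, from 10, 20 and 13 UMIs. Relative to the IMQ library, the IMQ+celastrol library was 2.38-fold [1.06 to 5.69] lower. T or NK cell-like cells had 1 Il34 UMI in the IMQ+celastrol library, 2 in the IMQ and 21 in the normal library, a level of 9.96 CPM in the last. Of the 20 normal cells with one, 4 also held a basal keratinocyte marker UMI, as did 25.3% of the 660 without. The summed basal keratinocyte markers stood at 571, 229.6 and 141 CPM in the T or NK cell-like cells of the IMQ+celastrol, IMQ and normal libraries, and their part in these Il34 counts was not tested.

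Csf2 (ENSMUSG00000018916, chr11:54247271-54249667, minus strand) encodes GM-CSF, made in skin by activated T cells and innate lymphocytes. In T or NK cell-like cells it stood at 153 CPM [132 to 176.5] in the IMQ+celastrol library, 240.0 [224 to 257] in the IMQ library and 146 [130.2 to 163] in the normal library. So the IMQ library was 1.64-fold [1.44 to 1.88] higher than the normal library, and the IMQ+celastrol library was 1.57-fold [1.34 to 1.84] lower than the IMQ library. The share of cells with the message had overlapping intervals. Of T or NK cell-like cells with at least 2000 UMIs, thinned to 2000, 12.97% [8.99 to 17.9], 12.1% [9.63 to 15] and 11.5% [8.99 to 14.4] had a Csf2 UMI in the 3 libraries. Fibroblast-like cells gave 0.0413%, 0.0612% and 0%. Shallower T or NK cell-like cells are not in these shares. Single cells held up to 32, 71 and 38 Csf2 UMIs. Median UMIs per T or NK cell-like cell were 2523.5, 3218.5 and 2763.5.

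The T cell-like clusters differed in kind, and the libraries differed in how many cells each held. Cluster 23 made up 35.0% of the class in the IMQ+celastrol library, 35.15% in the IMQ and 16.0% in the normal library, cluster 13 made up 40.2%, 35.3% and 50.4%, and cluster 21 made up 24.9%, 29.6% and 28.4%. Cluster 41, with Trdv4 and Xcl1, had cells in the normal library alone (35 cells, 5.15% of the class), and at 239 CPM [181 to 310.2] it held 57 of the library's 325 Csf2 UMIs. Cluster 23, led by the type 17 cytokine genes Il17a, Il17f and Il22, had 287 CPM [242 to 339] in the IMQ+celastrol library, 382 [352.5 to 412.5] in the IMQ library and 125 [85.7 to 177] in the normal library. There the IMQ library was 3.05-fold [2.14 to 4.49] higher than the normal library, and the IMQ+celastrol to IMQ ratio was 0.753 [0.624 to 0.904], within the fold. Cluster 13, with Cd3e and the gamma-delta receptor gene Trdv4, had 72.6, 162 and 190.5 CPM in the same order. In it the IMQ+celastrol library was 2.23-fold [1.36 to 3.82] lower than the IMQ library, while the IMQ over normal ratio was 0.8497. Cluster 21, with Ccl5 and Ifng, had 61.7, 70.5 and 40.6 CPM.

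Cells with Csf2 carried Il17a to different degrees. Of T or NK cell-like cells with a Csf2 UMI, 16 of 47 had an Il17a UMI in the IMQ+celastrol library, 68 of 138 in the IMQ and 8 of 89 in the normal library. Among cells without Csf2 the shares were 14.05%, 19.3% and 8.97%. All of the cells with both Csf2 and Il17a were in cluster 23. Within that cluster, Il17a was in 51.6%, 78.2% and 80.0% of cells with Csf2, in the same order. Of its cells without Csf2, 46.7%, 59.0% and 49.5% had Il17a. Of the Csf2 cells of cluster 23, an Il22 UMI was in 4 of 31, 59 of 87 and 0 of 10. Among its cells without Csf2 the Il22 shares were 18.9%, 40.45% and 2.02%. So Csf2 cells had Il22 more often than the rest in the IMQ library alone.

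The epithelial compartment held 2.43% of Csf2 UMIs in the IMQ+celastrol library, 13.07% [10.99 to 15.4] in the IMQ library and 4.0% [2.15 to 6.74] in the normal library (5, 124 and 13 UMIs). The IMQ level over the whole compartment was 7.785-fold [4.39 to 15.03] higher than the normal level, and 10 of the 13 normal UMIs were in cluster 28 (led by Elovl3, unnamed). Keratinocyte-like cells had 0.109 CPM in the IMQ+celastrol library, 2.94 in the IMQ and 0.0842 in the normal library, from 5, 124 and 2 UMIs. The 124 UMIs lay in 11 of 970 cells, with 43 in the highest, and 117 of them were in cluster 8. That made the IMQ library 34.9-fold [9.465 to 291.5] higher than the normal library, whose level rests on 2 UMIs, and the IMQ+celastrol library 27.0-fold [11.3 to 84.6] lower than the IMQ library. With 1 CPM added to each level these log2 ratios were 1.86 and -1.83, against 5.13 and -4.76 without. These 11 cells held 250.3 CPM of summed T cell markers, against 126 CPM in the other 959 cells, and 19690 against 11990 CPM of summed differentiated keratinocyte markers. Whether they hold RNA of more than 1 cell was not tested.

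Csf3 (ENSMUSG00000038067, chr11:98701263-98703629, plus strand) encodes G-CSF, an inducible factor with little message in resting tissue. In keratinocyte-like cells it stood at 6.79 CPM [6.06 to 7.59] in the IMQ+celastrol library, 25.9 [24.4 to 27.5] in the IMQ library and 0.168 [0.0459 to 0.431] in the normal library. The IMQ library was 154-fold [59.9 to 565] higher than the normal library, where 4 UMIs were counted, and the IMQ+celastrol library was 3.81-fold [3.36 to 4.34] lower than the IMQ library. With 1 CPM added to both levels the IMQ over normal log2 ratio was 4.52, against 7.26 without. Few cells carried the message. There were 312 UMIs in 43 cells of the IMQ+celastrol library, 1092 in 120 cells of the IMQ library and 4 in 4 cells of the normal library. Thinned shares were 0.687% [0.330 to 1.26], 3.56% [2.48 to 4.945] and 0.0787%, against 0%, 0.166% and 0% of T or NK cell-like cells.

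Most of it was in cluster 12, basal keratinocyte-like cells with Il19, Il24 and the cycling gene Ube2c. That cluster had 13.2 CPM in the IMQ+celastrol library (23 of 358 cells) and 45.2 CPM in the IMQ library (96 of 376 cells), a difference of 3.43-fold [2.94 to 4.01], while only 15 normal cells fell in it, with 0 Csf3 UMIs. Cluster 8, led by Sprr2 genes, had 0.570 CPM in the IMQ+celastrol library and 8.84 CPM in the IMQ library, 15.5-fold lower with celastrol. Cluster 16, found mainly in the IMQ+celastrol library, had 6.895 CPM. The 10 genes of the neutrophil list, S100a9 and Il1r2 among them, differed between libraries in the keratinocyte-like class. They summed to 2293, 18110 and 109.6 CPM in the IMQ+celastrol, IMQ and normal libraries. Within cluster 12 of the IMQ library the same sum was 9287 CPM in the cells with Csf3 and 8631 CPM in those without. The sums are not split by gene here, and whether they reflect RNA of neutrophils was not tested.

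Fibroblast-like cells were the next source. Csf3 stood at 6.35 CPM in the IMQ+celastrol library, 11.4 CPM in the IMQ and 0 in the normal library, from 146 UMIs in 12 cells, 383 UMIs in 72 cells and no UMI. Against the 0.210 CPM that 3 counts would give in the normal library, the IMQ+celastrol library was at least 30.2-fold and the IMQ library at least 54.2-fold higher. The IMQ+celastrol library was 1.795-fold [1.48 to 2.19] lower than the IMQ library, but with doublets kept this log2 ratio was -0.45 and inside the fold. The clusters went in opposite directions. Cluster 9 had 0.949 CPM in the IMQ+celastrol library and 27.2 CPM in the IMQ library, 28.7-fold [9.685 to 140.0] lower with celastrol, and cluster 2 had 2.62 and 11.6 CPM, 4.435-fold lower. Cluster 14 had 81.35 CPM in the IMQ+celastrol library and 6.56 CPM in the IMQ library, 12.4-fold higher with celastrol, and all 126 UMIs behind the higher level came from 4 cells. Without the cell with most Csf3 UMIs in each library, a setting chosen after seeing the data, the class log2 ratio was -1.16.

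Endothelial-like and myeloid-like cells added smaller sums. Blood endothelial-like cells had 0 Csf3 UMIs in 22 cells of the IMQ+celastrol library, 200.2 CPM [171.5 to 232] in the IMQ library (17 of 49 cells with a UMI) and 71.8 CPM [53.8 to 94.0] in the normal library (9 of 194 cells). They were the chief Csf3 source of normal skin, but too few for the ratio rule. Lymphatic endothelial-like cells had 0, 46.3 and 5.21 CPM in the IMQ+celastrol, IMQ and normal libraries, and the IMQ+celastrol library was at least 15.1-fold lower than the IMQ library. Monocyte- or macrophage-like cells had 3.98, 34.0 and 0 CPM from 2, 122 and 0 UMIs, with 41 of the 122 in 1 cell. Their IMQ+celastrol level was 8.54-fold [2.315 to 71.3] lower than the IMQ level.

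**Figure D3:**
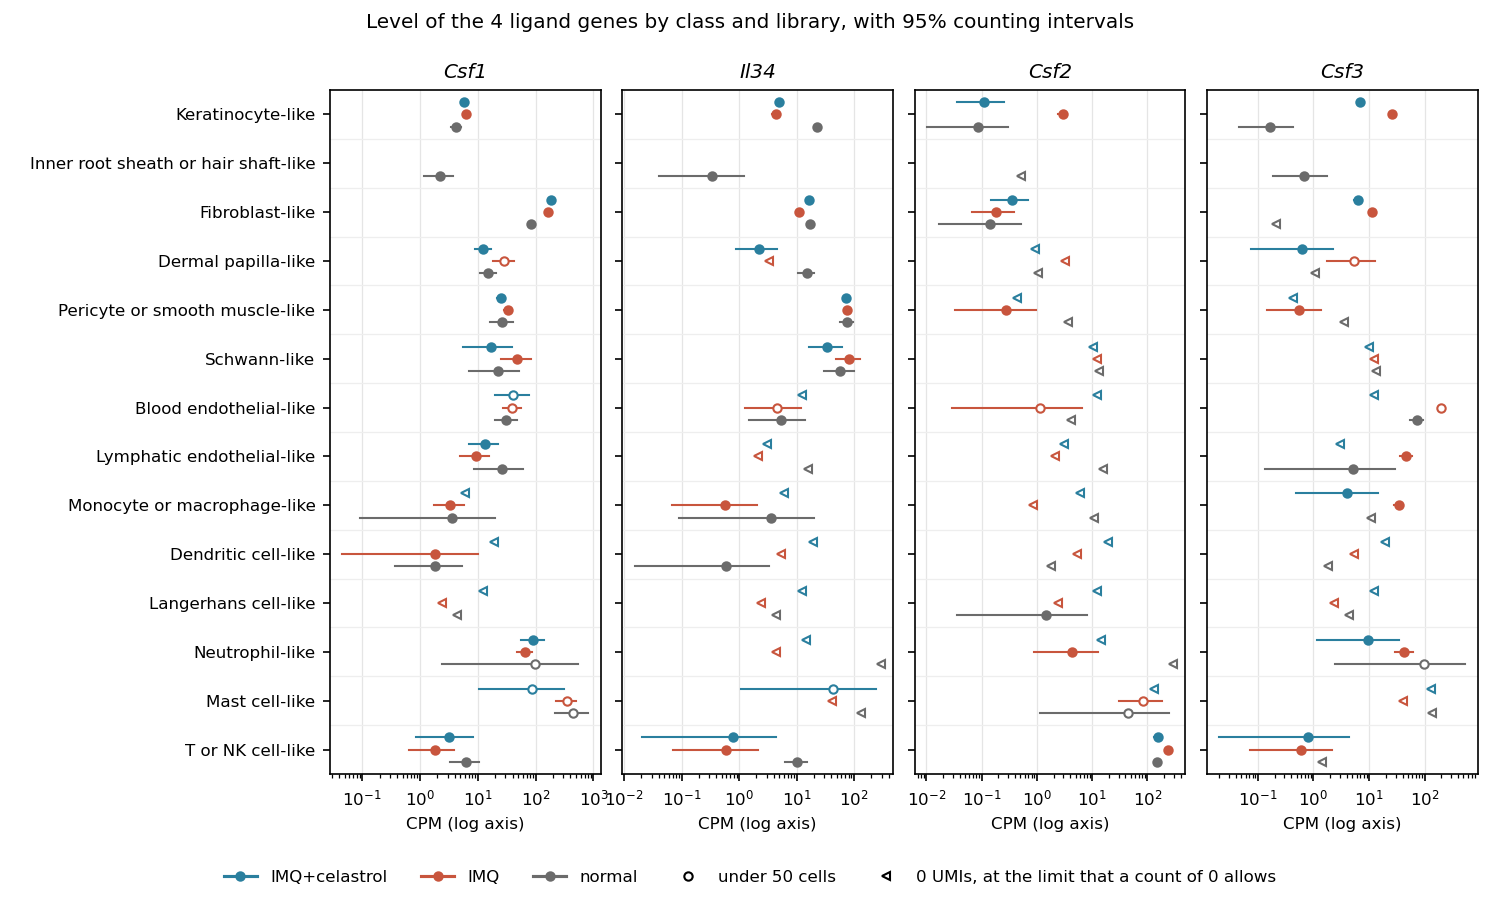
Points show the level (CPM, log axis) of the 4 ligand genes in each class, with 95% counting intervals, for the IMQ+celastrol, IMQ and normal libraries from top to bottom within a row. Open circles are classes under 50 cells, open triangles mark 0 UMIs at the limit that a count of 0 allows, and classes under 5 cells are not drawn. Csf2 lies above 140 CPM in T or NK cell-like cells of all 3 libraries, and Csf3 in keratinocyte-like cells is 6.79, 25.9 and 0.168 CPM.

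Csf1r (ENSMUSG00000024621, chr18:61100598-61132149, plus strand) encodes the receptor of both CSF1 and IL34. It was highest in Langerhans cell-like cells, the dendritic-shaped macrophages of the epidermis, at 759.9 CPM [654 to 878] in the IMQ+celastrol library, 679 [634 to 726] in the IMQ library and 542 [489 to 599.7] in the normal library. A UMI was found in 15 of 16, 57 of 59 and 80 of 85 of these cells. The IMQ over normal ratio was 1.25 and within the fold, although with doublets kept its log2 was 0.85, past the fold. There were 16, 59 and 85 Langerhans cell-like cells, too few in the IMQ+celastrol library for a ratio.

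In monocyte- or macrophage-like cells Csf1r stood at 207 CPM [169 to 250.5] in the IMQ+celastrol library, 322 [303.5 to 341] in the IMQ and 372 [304 to 451] in the normal library. With celastrol the level was 1.56-fold [1.27 to 1.92] lower than in the IMQ library, and the IMQ over normal ratio was 0.865 [0.707 to 1.07]. The IMQ over normal log2 ratio of -0.21 was not stable: it turned to 1.33 when counted per cell and to 1.56 both with the stricter cell filter and at resolution 0.5. The class was made of cluster 18, with the monocyte genes Chil3 and Lyz2 (80, 492 and 16 cells in the IMQ+celastrol, IMQ and normal libraries), and cluster 35, with the tissue macrophage genes C1qc and Mrc1 (17, 58 and 107 cells). Cluster 18 by itself had 198 CPM in the IMQ+celastrol library and 323 CPM in the IMQ library, 1.63-fold lower with celastrol. Cluster 35 had 312 CPM in the IMQ and 411 CPM in the normal library, within the fold. Of the cells of the class with at least 2000 UMIs, thinned to 2000, 39.5%, 47.4% and 36.7% had a Csf1r UMI. Keratinocyte-like cells gave 0%, 0% and 0.0394%. The median UMIs per cell of the class were 4751, 6786.5 and 1834, the last under the 2000 UMIs needed for thinning. Dendritic cell-like cells had 108, 67.85 and 51.6 CPM, with only 26 such cells in the IMQ+celastrol library.

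A low Csf1r signal lay in fibroblast-like cells, at 7.52 CPM [6.44 to 8.73] in the IMQ+celastrol library, 4.08 [3.42 to 4.82] in the IMQ library and 12.8 [11.0 to 14.8] in the normal library. Between the IMQ and the normal library this was 3.15-fold [2.51 to 3.96] lower, and the IMQ+celastrol library 1.845-fold [1.47 to 2.33] higher than the IMQ library. Cluster 0 held most of these UMIs, 99 of 173 in the IMQ+celastrol library and 143 of 183 in the normal library, at 28.5 CPM [23.1 to 34.7] and 34.1 CPM [28.7 to 40.1]. Only 25 cells of the IMQ library fell in cluster 0, with 1 of the 137 fibroblast-like Csf1r UMIs of that library, where cluster 9 held 73. A Csf1r UMI was in 74 of 343 cells of cluster 0 in the IMQ+celastrol library and in 121 of 1126 in the normal library.

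Those 74 and 121 cells held 0 and 1 UMIs of the macrophage gene C1qa, 0 UMIs of Mrc1, and 1 and 0 UMIs of Tyrobp, with Col1a1 at 14810 and 35090 CPM. Over all fibroblast-like cells, the 9 tissue macrophage markers summed to 8.65, 18.3 and 9.47 CPM and each had a UMI in every library, highest in the IMQ library where Csf1r was lowest. The monocyte list summed to 767, 940.4 and 412 CPM, with Fcgr1 at 0 in the IMQ+celastrol library and Chil3 at 0 in the normal library. Csf1r begins 15537 bases after the end of Pdgfrb, a receptor gene of stromal cells on the same strand, and it overlaps Hmgxb3 on the other strand. Whether reads of these genes were counted there was not tested.

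Csf2ra (ENSMUSG00000059326, chr19:61223957-61228429, minus strand) and Csf2rb (ENSMUSG00000071713, chr15:78325752-78353847, plus strand) encode the alpha and beta chains of the GM-CSF receptor. Mouse Csf2rb has a near-identical neighbour, Csf2rb2, whose product serves the interleukin 3 receptor, and how the counting split reads between them is not given in the sources used here, so Csf2rb values are uncertain to that extent.

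The pair parted in Langerhans cell-like cells. Csf2rb stood at 487 CPM [403 to 584] in the IMQ+celastrol library, 635 [591 to 680.1] in the IMQ and 165 [136 to 198] in the normal library, and the IMQ library was 3.85-fold [3.16 to 4.72] higher than the normal library. A Csf2rb UMI was in 15 of 16, 58 of 59 and 53 of 85 cells. Thinned to 2000 UMIs the shares were 43.75%, 62.7% [49.15 to 75.0] and 25.9% [17.0 to 36.5], against 0%, 0.210% and 0.0787% of keratinocyte-like cells. Csf2rb2 had the same order in these cells, at 165, 245 and 81.75 CPM. Median UMIs per Langerhans cell-like cell were 14820, 19920 and 7366.

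Csf2ra, by contrast, stood at 210.6 CPM in the IMQ+celastrol library, 139.8 in the IMQ and 283 in the normal library, 2.02-fold [1.64 to 2.49] lower in the IMQ than in the normal library. That call was not firm. The log2 ratio of -1.02 became -0.46 with doublets kept and -0.29 with Scrublet's calls (not used in the IMQ library), and turned to 0.36 when counted per cell.

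In monocyte- or macrophage-like cells Csf2rb had 101 CPM in the IMQ+celastrol library, 135 in the IMQ and 57.8 in the normal library, and Csf2ra had 209, 233 and 148 CPM. The IMQ library was 2.34-fold [1.42 to 4.12] and 1.57-fold [1.15 to 2.21] higher than the normal library for the 2 chains. Only cluster 35 of this class had at least 50 cells in both libraries, and there the difference was not seen. Cluster 18, with 492 of the IMQ cells, had 16 normal cells and was not compared. In cluster 35 alone, Csf2rb had 53.4 CPM in the IMQ library and 48.1 CPM in the normal library, a ratio of 1.11, and Csf2ra had 130.3 and 127 CPM. With a stricter cell filter the class log2 ratios were -0.27 for Csf2rb and 0.06 for Csf2ra.

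Dendritic cell-like cells had Csf2ra at 260.0, 209 and 227 CPM in the IMQ+celastrol, IMQ and normal libraries. Csf2rb had 146, 114 and 179 CPM there, 1.57-fold lower in the IMQ than in the normal library, a call that ended per cell, where the log2 ratio was 0.01. Neutrophil-like cells had Csf2ra at 201 CPM in the IMQ+celastrol library and 214 CPM in the IMQ library. Their Csf2rb stood at 81.4 and 129.9 CPM, 1.60-fold lower with celastrol, and at resolution 0.5 that log2 ratio was -0.52 and inside the fold.

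The beta chain was also counted without the alpha chain. Blood endothelial-like cells had Csf2rb at 53.5 CPM in the IMQ+celastrol library, 205 in the IMQ and 152 in the normal library, with Csf2ra at 0, 2.32 and 4.07 CPM. Of their cells with a Csf2rb UMI, 2 of 35 in the IMQ and 3 of 77 in the normal library had one of Csf2ra. Mast cell-like cells, in which the beta chain is known to serve interleukin 3, had 476, 688 and 355 CPM of Csf2rb.

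Outside myeloid-like cells, Csf2ra stood low in epithelial and stromal cells. Keratinocyte-like cells had 2.09 CPM in the IMQ+celastrol library, 1.66 in the IMQ and 4.46 in the normal library, where cluster 7 (led by Shisa2) held 81 of 106 UMIs. Relative to the normal library it was 2.69-fold [1.97 to 3.69] lower in the IMQ library, but per cell the log2 ratio turned to 0.83 and with a stricter cell filter to 0.10. Thinned shares were 0.412%, 0.524% and 0.748%. Dermal papilla-like cells, the inductive cells at the base of the hair follicle, had 11.2, 12 and 34.1 CPM, with only 29 cells in the IMQ library. These levels come from different clusters. All 91 IMQ+celastrol and all 29 IMQ cells lay in cluster 38, while 502 of the 504 normal cells lay in cluster 22.

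Csf3r (ENSMUSG00000028859, chr4:126024550-126044440, plus strand) encodes the G-CSF receptor and had the largest myeloid share of the 4 receptors in every library, as given above. In neutrophil-like cells it stood at 848 CPM [727 to 982] in the IMQ+celastrol library, 625 [567.6 to 687] in the IMQ and 1543 [882 to 2505] in the normal library, where there were 7 such cells. The IMQ+celastrol to IMQ ratio was 1.36 [1.13 to 1.62] and within the fold. A UMI was found in 56 of 69 cells in the IMQ+celastrol library and 120 of 140 in the IMQ library. Among neutrophil-like cells with at least 2000 UMIs, thinned to 2000, the shares were 76.4% and 61.2%. T or NK cell-like cells had none and keratinocyte-like cells had 0% and 0.105%. Median UMIs per neutrophil-like cell were 2679 and 4510.5. Over all kept cells Csf3r was 3.16-fold lower in the IMQ+celastrol than in the IMQ library. Neutrophil-like cells were 1.13% of kept cells in the IMQ+celastrol library and 1.87% in the IMQ library, and held 177 of 216 and 433 of 766 Csf3r UMIs. Counted per cell, their IMQ+celastrol over IMQ log2 ratio turned to -0.27.

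Monocyte- or macrophage-like cells carried Csf3r at 53.7, 84.1 and 46.95 CPM in the IMQ+celastrol, IMQ and normal libraries, from 27, 302 and 13 UMIs. The IMQ library was 1.79-fold [1.03 to 3.40] higher than the normal library and the IMQ+celastrol library 1.57-fold [1.055 to 2.42] lower than the IMQ library. With each library clustered by itself the IMQ over normal log2 ratio was -0.03, and with doublets kept the IMQ+celastrol over IMQ log2 ratio was -0.56 and inside the fold. In cluster 35 alone Csf3r had 57.7 CPM in the IMQ and 39.3 CPM in the normal library, a ratio of 1.47 [0.670 to 3.545], within the fold. Cluster 18, with 492 IMQ cells, had only 16 normal cells. In it Csf3r had 48.9 CPM in the IMQ+celastrol and 88.0 CPM in the IMQ library, 1.80-fold [1.15 to 2.95] lower with celastrol. Among cells of the class with a Csf1r UMI, 13 of 57, 176 of 403 and 3 of 54 also had one of Csf3r (22.8%, 43.7% and 5.56%). Among cells of the class without Csf1r the shares were 27.5%, 27.2% and 14.5%. So Csf1r cells had Csf3r more often than the rest in the IMQ library alone.

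**Figure D4:**
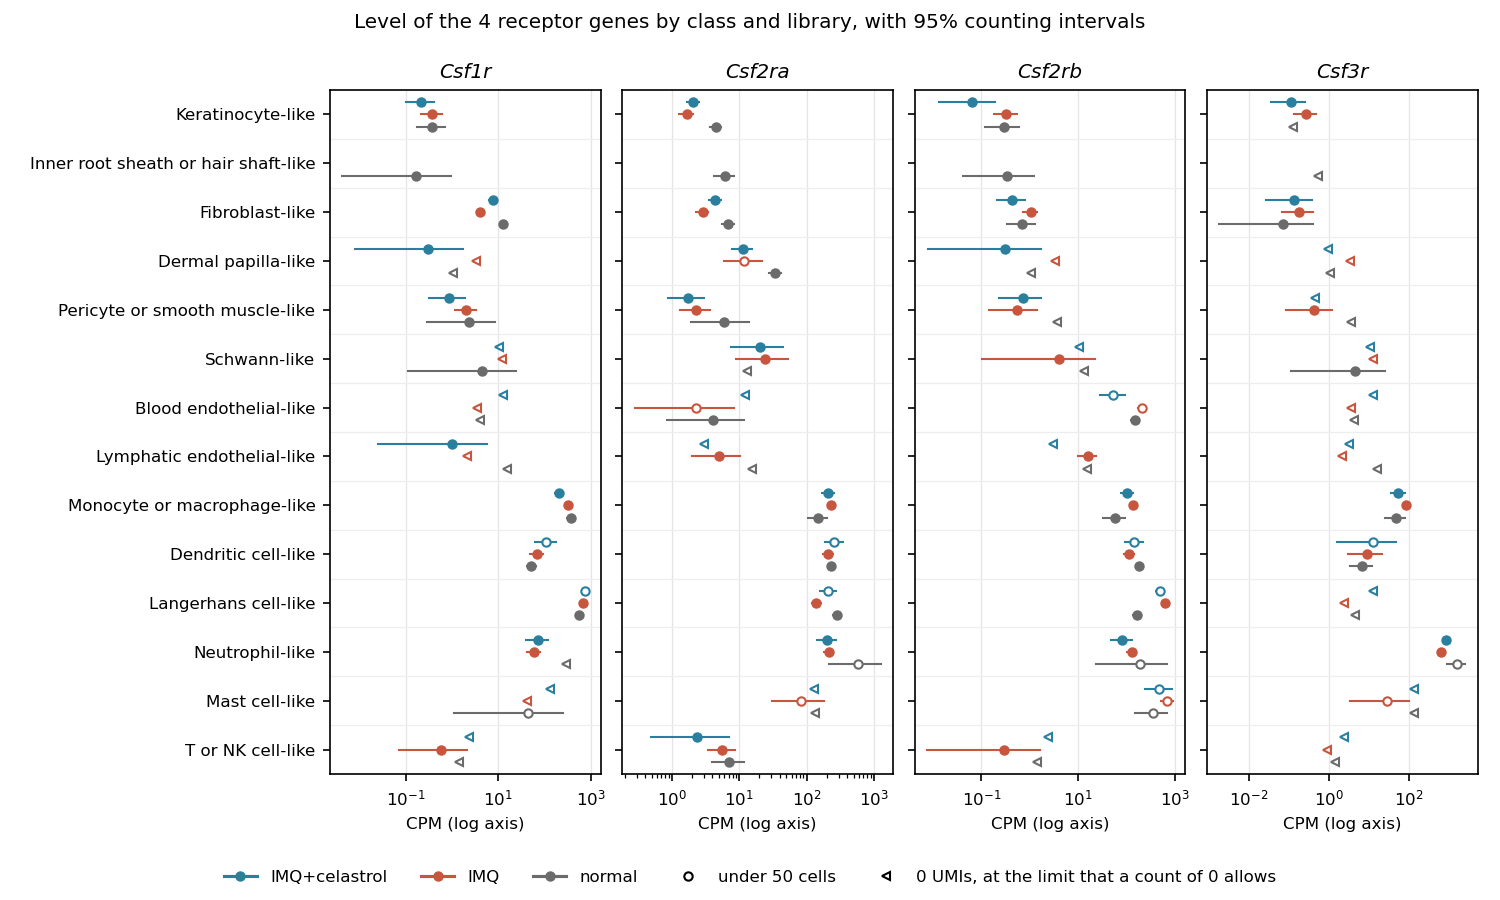
Points show the level (CPM, log axis) of the 4 receptor genes in each class, with 95% counting intervals, for the IMQ+celastrol, IMQ and normal libraries from top to bottom within a row. Open circles are classes under 50 cells, open triangles mark 0 UMIs at the limit that a count of 0 allows, and classes under 5 cells are not drawn. Csf1r is highest in Langerhans cell-like cells, Csf3r in neutrophil-like cells, and Csf2rb in Langerhans cell-like cells is 487, 635 and 165 CPM.

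Counted by class, the members were read against the share of all genes past the fold. In fibroblast-like cells 6 members had enough UMIs. Against the normal library, IMQ skin was higher for 2 of them, Csf1 and Csf3 (15.5% of genes), and lower for 3, Il34, Csf1r and Csf2ra (17.1%). Against the IMQ library, the IMQ+celastrol library was higher for those same 3, Il34, Csf1r and Csf2ra (14.2%), and lower for 2, Csf3 and Csf2rb (6.88%). These comparisons share the IMQ library. In keratinocyte-like cells the IMQ library was higher than the normal library for 2 of 7, Csf2 and Csf3 (15% of genes), and lower for 2, Il34 and Csf2ra (36.8%, so a share below that of all genes). The IMQ+celastrol library was lower than the IMQ library for 3 of 6, Csf1r, Csf2 and Csf3 (8.93%), and higher for none (13.4%).

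In monocyte- or macrophage-like cells the IMQ library was higher than the normal library for 4 of 5, Csf2ra, Csf2rb, Csf3 and Csf3r (25.5%), and lower for none (19.9%). The IMQ+celastrol library was lower than the IMQ library for 3 of 5, Csf1r, Csf3 and Csf3r (18.0%), and higher for none (12.4%). In T or NK cell-like cells the IMQ library was higher than the normal library for Csf2 (18.1%) and lower for Il34 (15%) of 3, and the IMQ+celastrol library was lower than the IMQ library for Csf2 and Csf2ra, the 2 that could be compared (9.44%), and higher for none (10.3%). The log2 ratio of Csf2ra there was -1.25, but its counting interval held a ratio of 1. In Langerhans cell-like cells the IMQ library was higher than the normal library for Csf2rb (19.8%) and lower for Csf2ra (15.5%) of 3. In dendritic cell-like cells it was lower for Csf2rb (14.6%) and higher for none (26.6%) of 3.

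The remaining classes had fewer calls. Of 6 members in neutrophil-like cells, 2 were lower in the IMQ+celastrol than in the IMQ library, Csf2rb and Csf3 (18.1%), and none higher (20.1%). In lymphatic endothelial-like cells Csf3 was higher in the IMQ than in the normal library (25%) and neither of the 2 members compared was lower (13%), while Csf2rb and Csf3, of 3, were lower in the IMQ+celastrol than in the IMQ library (9.62%) and none higher (8.65%). In pericyte- or smooth muscle-like cells Csf2ra was lower in the IMQ than in the normal library (17.1%) and none of 3 higher (18.3%), and Csf1r was lower in the IMQ+celastrol than in the IMQ library (6.00%) and none of 4 higher (7.83%). The log2 ratio of Csf1r there was -1.24, but its counting interval held a ratio of 1. In Schwann-like cells Il34 was the 1 member compared, within the fold between the IMQ and normal libraries (17.6% of genes higher, 16.7% lower) and lower in the IMQ+celastrol than in the IMQ library (14.6% lower, 12.9% higher). Against the normal library, fibroblast-like cells of the IMQ+celastrol library were higher for Csf1 and Csf3 (16.8%) and lower for Csf1r, Csf2ra and Csf2rb (9.95%) of 6. With 1 to 7 members compared per class, these counts describe the members named and no more.

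**Figure D5:**
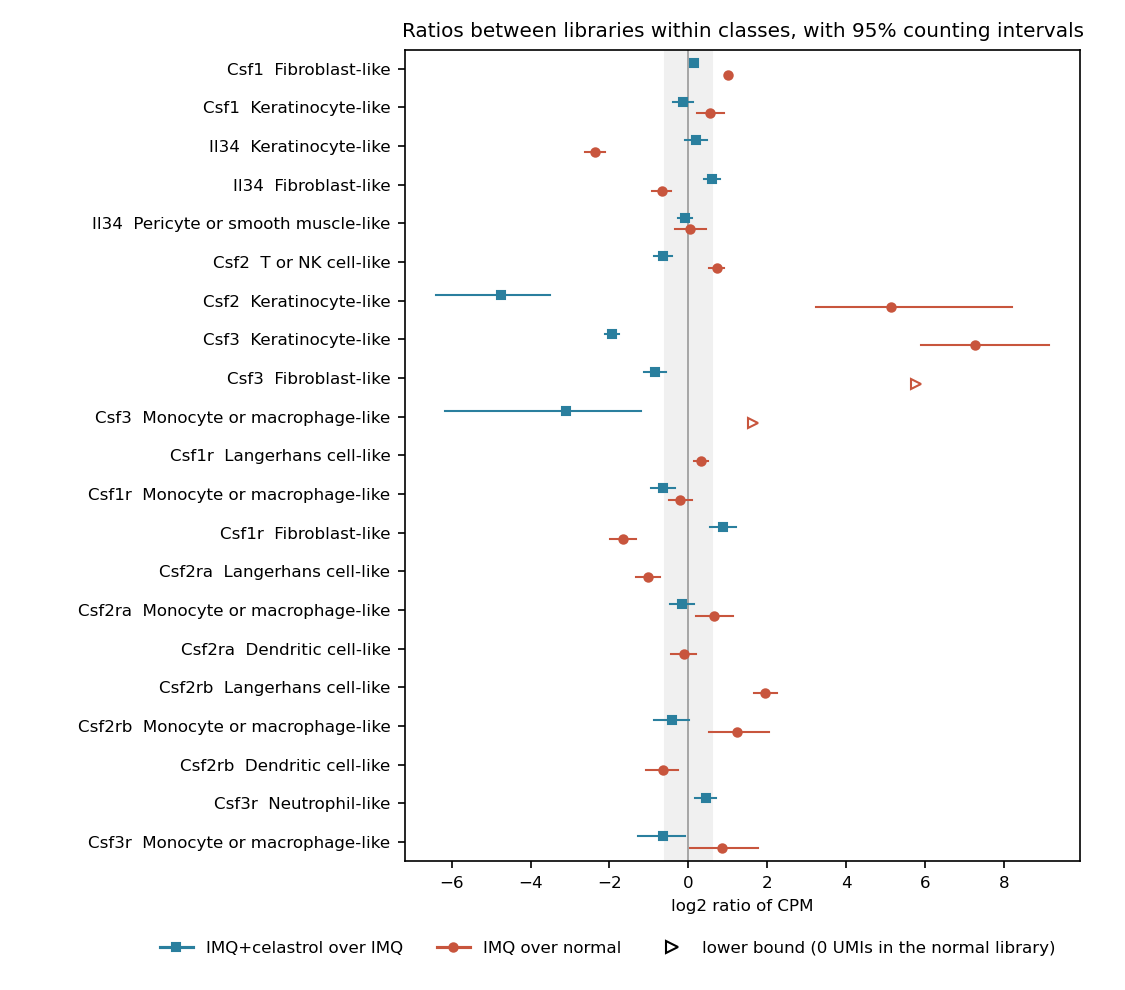
Points show log2 ratios of CPM within classes with at least 50 cells in both libraries, with 95% counting intervals; squares are IMQ+celastrol over IMQ, circles IMQ over normal, and open triangles lower bounds where the normal library had 0 UMIs. The grey band marks ratios within 1.5-fold. For Csf2 and Csf3 the squares lie left of the band and the circles and triangles right of it, while for Il34 in pericyte- or smooth muscle-like cells both lie within it.

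The genes around the members were followed as lists. The 17 genes of cytokines, receptors and factors known to induce colony-stimulating factor genes were higher in the IMQ than in the normal library for 14 of 17 over all kept cells and lower for none (16.7% and 25.2% of all genes), with a median log2 ratio of 1.04, against -0.13 over all genes. Against the IMQ library, the IMQ+celastrol library was lower for 9 of 17 and higher for none (13.1% and 8.30%), with a median of -0.62, against 0.00 over all genes. In T or NK cell-like cells Il17f, a type 17 cytokine, stood at 418 CPM in the IMQ+celastrol library, 1431 in the IMQ and 35.6 in the normal library, and Il17a at 685, 1968 and 337 CPM. In fibroblast-like cells 10 of 15 were higher in the IMQ than in the normal library and none lower (15.5% and 17.1% of all genes), and 4 of 14 were lower in the IMQ+celastrol than in the IMQ library (6.88%). Il1r1, the interleukin 1 receptor, had 135, 283 and 72.5 CPM there, and the interleukin 17 receptor chain Il17ra had 58.4, 98.5 and 37.0 CPM, in the IMQ+celastrol, IMQ and normal libraries.

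In keratinocyte-like cells 9 of 17 were higher in the IMQ than in the normal library and 1 lower (15% and 36.8% of all genes), and 6 of 17 were lower in the IMQ+celastrol than in the IMQ library (8.93%). Il1a, an alarm cytokine of keratinocytes, had 4.55, 13.2 and 0.842 CPM there. In monocyte- or macrophage-like cells 8 of 12 were higher in the IMQ than in the normal library and none lower (25.5% and 19.9% of all genes), and 5 of 13 were lower in the IMQ+celastrol than in the IMQ library (18.0%). Il1b, which encodes interleukin 1 beta, had 994, 1560 and 199 CPM there.

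Of 21 genes of signalling below these receptors, 10 were higher and none lower in Langerhans cell-like cells of the IMQ than of the normal library (19.8% and 15.5% of all genes), with a median log2 ratio of 0.58, against 0.00 over all genes. Cish, a feedback inhibitor induced through STAT5, had 183 CPM in the IMQ library and 12.9 CPM in the normal library, a 14.15-fold difference. Stat5a had 90.5 and 27.25 CPM, Stat3 had 148.5 and 37.3 CPM, and the feedback inhibitor Socs3 had 535 and 155 CPM. In monocyte- or macrophage-like cells 11 of 21 were higher in the IMQ than in the normal library and 1 was lower (25.5% and 19.9% of all genes). The IMQ+celastrol library was lower than the IMQ library for 2 of 21, a smaller share than the 18.0% of all genes. In fibroblast-like cells 11 of 19 were higher in the IMQ than in the normal library (15.5%).

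Of 15 myeloid transcription factor genes, 13 could be compared in monocyte- or macrophage-like cells, and 5 were higher and 4 lower in the IMQ than in the normal library, where 25.5% and 19.9% of all genes were. The macrophage factor Maf was among the lower ones, at 108 CPM in the IMQ and 513 CPM in the normal library, beside the smaller part of the class in the tissue macrophage-like cluster 35. Over all kept cells the IMQ library was higher than the normal library for 7 of 15 (16.7% of all genes) and the IMQ+celastrol library lower than the IMQ library for 7 of 15 (13.1%), among them Spi1, which encodes PU.1, at 7.87 CPM in the IMQ+celastrol library and 30.5 CPM in the IMQ library. Of the 5 relatives of these receptors, 2 could be compared over all kept cells. Il3ra was higher in the IMQ library (30.9 CPM) than in the normal library (10.8 CPM), where 16.7% of all genes were higher. Csf2rb2 was lower in the IMQ+celastrol library (0.750 CPM) than in the IMQ library (5.95 CPM), where 13.1% of all genes were lower. Csf2rb2 had 4.74 CPM in the normal library, and its IMQ over normal ratio of 1.255 was within the fold.

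Patterns of the members were compared with those of 15178 genes over 31 profiles of class by library, by Pearson's r of log2(CPM + 1), as a description in which profiles of 1 library share its depth. Csf2 was most like Cd163l1 (0.980), Il17a (0.977) and Lat (0.965). Csf1r was most like Clec4n (0.947), March1 (0.939) and Btk (0.930), and Csf2ra most like Btk (0.899), Nfam1 (0.897) and March1 (0.896). Csf2rb was nearest to its neighbour Csf2rb2 (0.941), followed by Bst1 (0.887) and Clec4n (0.884). Csf3r was most like A530064D06Rik (0.976), Cd300lb (0.9695) and B430306N03Rik (0.968), and Il34 most like Col12a1 (0.890), Fam26e (0.8735) and Klhdc8b (0.869). The ligands with several sources had looser company: Csf1 was nearest to Igf1r (0.806), Rnf11 (0.785) and Col5a1 (0.771), and Csf3 to Lcn2 (0.734), Upp1 (0.713) and Raet1e (0.712).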

How the data were processed

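Per the file headers, the matrices were written by Cell Ranger 4.0.0, and the submitters' processing notes name the builds mm10 and GRCm38. The deposited values are counts of UMIs per gene and cell barcode, not normalised, and the authors had already called the barcodes. Totals per library are given above.

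Cells with at least 300 genes and at most 20% mitochondrial UMIs were kept. Scrublet (scanpy 1.11.5) scored doublets, and since it called 83, 1 and 188 cells in the IMQ+celastrol, IMQ and normal libraries, the highest-scoring 0.8% per 1000 cells were left out in each (330, 513 and 870 cells). All libraries were clustered together without integration and without the 8 members, from 2000 variable genes, 30 components and 15 neighbours, by Leiden (leidenalg 0.10.2) at resolution 1. A cluster was named where its best of 24 marker lists scored at least 0.4 and 1.2 times the next, with at least 3 markers detected, no other list with more markers among the top 10 genes, and, in shallow clusters, a marker of its own there. The naming thresholds were chosen with the clusters in view.

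For each class and library, a gene's UMIs over all its cells were divided by the total (CPM). Exact intervals used scipy 1.17.1. The ratio step was tested on simulated counts. Genes were named by rule: the 8 members in each class of at least 50 cells, per list and comparison up to 4 genes furthest from a ratio of 1, and the 3 genes most like each member. Clusters are also given one by one. The members, lists and classes were chosen with earlier results of these data known. The alternatives tried were size factors, counts per cell, 1 CPM added, no minimum of UMIs, other doublet (none left out, or Scrublet's calls wherever they reached 0.5% of cells), filter, clustering and naming settings, and leaving out the cell with most UMIs.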

Additional observations from a re-analysis of the deposited data

Results flagged for a closer look

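For 4 members the same comparison gave ratios past 1.5-fold in opposite directions in 2 classes, with both counting intervals off a ratio of 1. The pair of classes furthest apart by that rule is given for each. With 1 library per group, none of these differences between classes was tested.

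For Il34, the IMQ+celastrol over IMQ log2 ratio was 0.59 in fibroblast-like cells and -1.25 in Schwann-like cells, a difference of 1.84. The Schwann-like ratio rests on 10 UMIs in the IMQ+celastrol library and 20 in the IMQ library.

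For Csf1r, the IMQ+celastrol over IMQ log2 ratio was 0.88 in fibroblast-like cells and -0.64 in monocyte- or macrophage-like cells, a difference of 1.52. The fibroblast-like clusters with Csf1r were in different shares in the 2 libraries, with 343 cells of cluster 0 in the IMQ+celastrol library and 25 in the IMQ library.

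For Csf2ra, the IMQ over normal log2 ratio was 0.65 in monocyte- or macrophage-like cells and -1.43 in keratinocyte-like cells, a difference of 2.08. Counted per cell, the keratinocyte-like ratio was 0.83, and with a stricter cell filter the ratio in monocyte- or macrophage-like cells was 0.06.

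For Csf2rb, the IMQ over normal log2 ratio was 1.94 in Langerhans cell-like cells and -0.65 in dendritic cell-like cells, a difference of 2.59. The first was past the fold in the alternatives tried, and the second was 0.01 when counted per cell.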

How the results depend on the processing

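Values here are log2 ratios. The settings were applied to IMQ over normal and IMQ+celastrol over IMQ ratios in all kept cells, compartments and named classes. Ratios of single clusters and of IMQ+celastrol over normal were not rerun. Of 79 such ratios past the fold in the main setting, 70 kept their direction and 49 also stayed past the fold. This held under all of the settings, out of 14, that gave a value for them. Some settings could not have changed these results. Dropping the minimum of UMIs leaves a called ratio as it was, and adding 1 CPM cannot turn a direction. Clustering and naming settings leave ratios over all kept cells unchanged, so their sameness there carries no weight. The 11 reversals were all IMQ over normal. Counted as UMIs per cell, Il34 became 0.40 in the epithelial compartment and 0.29 in fibroblast-like cells, Csf2ra became 0.61 in the epithelial compartment, 0.83 in keratinocyte-like, 0.36 in Langerhans cell-like and 0.14 in pericyte- or smooth muscle-like cells, and Csf2rb became 0.01 in dendritic cell-like cells. With the stricter cell filter Csf2ra was 0.10 in keratinocyte-like cells and Csf2rb -0.27 in monocyte- or macrophage-like cells, where resolution 0.5 gave Csf2rb -0.22 and clustering each library by itself gave Csf3r -0.029. Counts per cell are not scaled for depth, so the per-cell ratios also carry the difference in UMIs per cell between the libraries. In keratinocyte-like cells the median was 41900 UMIs in the IMQ and 8230 in the normal library. Neither the cause of that difference nor that of the other reversals was tested.

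The principal ratios below also moved. Per cell, Csf2 in T or NK cell-like cells was 1.24 (IMQ over normal) and -0.94 (IMQ+celastrol over IMQ), Csf1 in fibroblast-like cells 1.97 and 0.021, Il34 in keratinocyte-like cells -0.10 and -0.28, Csf3 in keratinocyte-like cells 9.53 and -2.41, and Csf1r in monocyte- or macrophage-like cells 1.33 and -0.97. Per cell, Csf2rb in Langerhans cell-like cells was 3.32 (IMQ over normal) and Csf3r in neutrophil-like cells -0.27 (IMQ+celastrol over IMQ). For Csf1 in fibroblast-like cells, IMQ over normal was 0.74 with doublets kept and 0.57 at resolution 0.5. IMQ+celastrol over IMQ was -0.004 with size factors, 0.21 with doublets kept, 0.25 at resolution 0.5, 0.010 at resolution 2 and 0.011 with each library clustered by itself. For Il34 in keratinocyte-like cells, IMQ over normal was -2.09 with size factors, -1.85 with every cluster named, -2.82 with Scrublet's calls (used in the IMQ+celastrol and normal libraries, with the main rule kept in the IMQ library, where it called 1 cell), -2.99 with the stricter filter and -2.71 at resolution 2. For Csf1r in monocyte- or macrophage-like cells, IMQ over normal was 0.16 with Scrublet's calls so used, and 1.56 both with the stricter filter and at resolution 0.5. The same setting gave 2.40 for Csf2rb in Langerhans cell-like cells and 0.14 for Csf3r in neutrophil-like cells. Adding 1 CPM gave 4.52 for Csf3 in keratinocyte-like cells, and clustering each library by itself gave -2.02 for Csf2 in T or NK cell-like cells (IMQ+celastrol over IMQ).

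Leaving out the cell with most UMIs of a member in each library, a setting chosen after seeing the data, gave -6.46 for Csf2 in keratinocyte-like cells and -1.16 for Csf3 in fibroblast-like cells (both IMQ+celastrol over IMQ) and 1.06 for Csf3 in monocyte- or macrophage-like cells (IMQ over normal), with no direction turned among the ratios past the fold. No paired analysis was possible because each group was 1 library, and no replicate could be left out. A count of 0 allows up to 3 counts in a class, and small classes (16 Langerhans cell-like and 26 dendritic cell-like cells in the IMQ+celastrol library, 7 neutrophil-like cells in the normal library) limit what could be compared.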
